A study of Mus musculus with 18 samples.

Results

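CD8 T cells that lacked miR-155 and came from mice given checkpoint antibodies were set against CD8 T cells of untreated mice that kept the microRNA. The libraries were chosen by their labels, the 3 of CD8 cells with a floxed miR-155 gene, Cre and antibody treatment and the 3 of CD8 cells with the floxed gene alone, which makes 6 of the 18 libraries of the series. The question was which genes still differed, or went past the floxed level, once deficient cells had been exposed to the antibodies. All mice were of the B6 strain, carried a floxed miR-155 gene and bore B16f10-OVA tumors, a mouse melanoma line with ovalbumin, grown under the skin for 12 days. "Treated deficient" cells carried Cre driven by the CD4 promoter, which works in developing T cells of both lineages. Their mice had received, on days 3, 6 and 9, antibodies to CTLA-4 and to PD-1/PD-L1 (250 ul at 1, 1 and 0.4 mg/ml; whether per antibody or per day was not clear). "Untreated deficient" cells carried the same Cre without antibodies, and "floxed" cells had no Cre and no antibodies. Each library pooled sorted cells of 2 to 3 tumors from separate mice. Floxed mice with antibodies were not analysed here, so in treated deficient against floxed cells the effects of Cre deletion and of the antibodies cannot be told apart.

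MicroRNAs are short RNAs that pair through their seed, near the 5′ end, with sites mostly in 3′ untranslated regions and lower the stability and translation of the matching transcripts. MiR-155 is strongly induced when T cells are activated, and in CD8 T cells it is known for sustaining effector responses and for restraining inhibitors of cytokine signalling such as SOCS1. CTLA-4 and PD-1 hold activated T cells back, and antibodies against them or their ligands release that restraint.

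The sequences below are the deleted microRNA and sites for it in genes that the results turn on. The mature miR-155-5p (RefSeq, GRCm38.p6, chr16:84714143-84714165, plus strand) is shown with its seed, bases 2 to 8, in capitals. The others are 30-base stretches of 3′ untranslated regions (GENCODE M21, GRCm38) in which capitals mark the letters AGCATTA, the complement of the seed, or AGCATTAA where a further A follows. They are the 4 reported targets with such a match that were called higher in treated deficient cells, and Socs1 and Inpp5d, the best known targets in T cells, which were not called.
miR-155-5p: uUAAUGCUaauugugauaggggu
Trp53inp1 (chr4:11170409-11170438, plus strand): tacatttttacactaacacaAGCATTAAca
Ifngr1 (chr10:19610166-19610195, plus strand): ttgtacatacttttttatggAGCATTActt
Tab2 (chr10:7906689-7906718, minus strand): agcaatgccataaggtagaaAGCATTAAtg
Hif1a (chr12:73946719-73946748, plus strand): aataagtgagtaattttagaAGCATTAttt
Socs1 (chr16:10784203-10784232, minus strand): ccggctgccgctgtgccgcAGCATTAAgtg
Inpp5d (chr1:87719818-87719847, plus strand): gtcctgagatgtttttaaaaAGCATTAAag

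Total counts were 11645432, 3198435 and 9104322 in treated deficient replicates 1 to 3, 7630955, 7118046 and 5718027 in untreated deficient and 7256053, 9791305 and 5108137 in floxed libraries. Treated deficient replicate 2 had 25.6% and floxed replicate 1 had 5.82% of its counts on ribosomal-like models, against 1.25 to 2.9% in the other 7 CD8 libraries. By Cd8a and Cd4 the sort held. Cd8a, which codes for a chain of the CD8 co-receptor, stood at 976, 978 and 1170 CPM (a gene's counts scaled to a common library total, with edgeR's TMM factors) in treated deficient and 1320, 1450 and 1140 CPM in floxed libraries, while Cd4 was at 2.15, 1.24 and 2.1 CPM and 3.14, 1.47 and 0 CPM. Summed markers of melanoma cells stood at 401, 541 and 1850 CPM in treated deficient, 3390, 3350 and 1580 CPM in untreated deficient and 201, 205 and 250 CPM in floxed libraries. Summed markers of macrophages and monocytes were at 790, 825 and 1080 CPM in treated deficient, 1790, 2470 and 3460 CPM in untreated deficient and 999, 1090 and 2510 CPM in floxed libraries. Those of gamma delta T cells were at 66.9, 77.8 and 72.9 CPM in treated deficient, 72.5, 77.6 and 70 CPM in untreated deficient and 38.6, 52.9 and 38.1 CPM in floxed libraries. Of 6 such markers tested, 0 were called in treated deficient against floxed cells. RNA of other cells thus differed between groups, and in such bulk samples a change in the share of a cell type and a change in RNA per cell cannot be told apart.

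Most differences between deficient and floxed CD8 cells were not called after blockade, a smaller set remained, and a few reversed. EdgeR's quasi-likelihood test over 14080 genes called 706 genes in treated deficient against floxed cells at an adjusted p under 0.05, which is 5.01% of the genes tested. Of these 379 were higher (2.69%) and 327 lower (2.32%) in treated deficient cells. Treated deficient and floxed libraries did not overlap in 3701 genes (26.3% of those tested) and in 694 of the 706 called. Untreated deficient against floxed cells gave 2710 calls (19.2%), of which 1358 were higher (9.64%) and 1352 lower (9.6%). Both comparisons use the same 3 floxed libraries. Of the 2710 genes, 309 were called in the same direction after blockade (184 higher and 125 lower, "remained"), 19 in the opposite direction (18 higher and 1 lower, "overshot"), and 2382 were not called. Not called is not the same as restored, since 741 of those 2382 still had an unadjusted p under 0.05. Treated against untreated deficient cells gave 1940 calls (13.8%). A further 156 genes that had not been called for the deletion were called in both of the other comparisons with the same sign ("passed", 86 higher and 70 lower).

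The number of calls depended on single libraries. It was 141, 111 and 247 without treated deficient replicates 1, 2 and 3, and 261, 1503 and 546 without floxed replicates 1, 2 and 3. It was 74 (65 higher and 9 lower) without treated deficient replicate 2 and floxed replicate 1, the 2 libraries rich in ribosomal-like counts, left out together, an alternative chosen after seeing the data. Remained genes numbered 96, 79 and 115 without treated deficient replicates 1, 2 and 3, and 126, 735 and 342 without floxed replicates 1, 2 and 3. Overshot genes numbered 2, 3 and 16, and 4, 23 and 6, in the same order. Of the 94 called genes among those named here, 21 were called without each of the 6 libraries in turn, and 15 of these also without those 2 libraries together. Lost without those 2 libraries together were mt-Nd6 (adjusted p = 0.0528), Gbp9 (0.0554), Cd79b (0.076), Gzma (0.0952), Rai14 (0.122) and Ifit1 (0.137). The 21 genes lead the paragraphs that follow, and for most of the other genes the libraries that a call rested on are given. When only the 6 libraries of this comparison were fitted, some of the 21 missed the threshold, among them Ifngr1 (adjusted p = 0.0561), mt-Nd6 (0.0585), Maf (0.0723), Rai14 (0.0891), Cd79b (0.0897) and Ppp1r3b (0.0945). Where several libraries are named, each was left out in turn and the adjusted p-values follow in the same order.

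**Figure D1:**
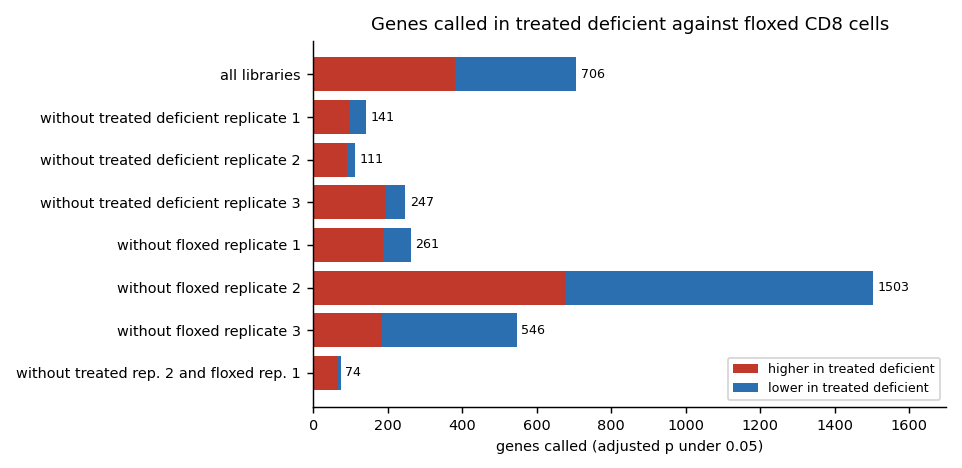
Number of genes called (x axis) in treated deficient against floxed CD8 cells with all libraries and with libraries left out (rows); red bars are genes higher and blue bars genes lower in treated deficient cells, and the label is their sum. The 706 calls with all libraries became 111 without treated deficient replicate 2 and 1503 without floxed replicate 2.

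The deleted locus stayed low after blockade. Mir155hg, from which miR-155 is cut (ENSMUSG00000097418, chr16:84703167-84715245, plus strand), had 4, 1 and 5 reads in treated deficient, 2, 7 and 12 reads in untreated deficient and 144, 196 and 51 reads in floxed libraries. The groups of deficient and floxed libraries did not overlap. The log2 fold change in treated deficient against floxed cells was -5.20 ± 0.73 (SE, adjusted p = 0.000502), and the call held without each library. The gene model of the precursor alone had no counts, so the mature microRNA itself was not measured.

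Among genes that remained higher, a secreted stress glycoprotein, a homing integrin, a stress gene reported as a miR-155 target and a transcription factor were well above the floxed level in every library. Stc2, stanniocalcin 2, which cells secrete under endoplasmic reticulum stress (chr11:31357307-31370074), was at 22.5, 21.9 and 9.44 CPM in treated deficient, 7.66, 11.9 and 10.3 CPM in untreated deficient and 2.42, 1.37 and 3.2 CPM in floxed libraries. Treated deficient replicates 1 and 2 were the highest, and no deficient library reached down to the floxed range. Its log2 fold change was 2.96 ± 0.39 (adjusted p = 0.000438). Itgb7, the integrin chain that pairs with alpha 4 and alpha E to bring T cells to the gut and to epithelia (chr15:102215995-102231935), was at 352, 352 and 326 CPM in treated deficient, 310, 366 and 296 CPM in untreated deficient and 170, 154 and 113 CPM in floxed libraries. The treated deficient libraries lay within the untreated deficient range and above every floxed one (log2 fold change 1.23 ± 0.17, adjusted p = 0.000502). Bnip3, a mitochondrial protein induced by hypoxia that promotes mitophagy, was at 31.4, 34.4 and 26.5 CPM in treated deficient, 21.1, 27.2 and 17.5 CPM in untreated deficient and 9.41, 8.52 and 10.3 CPM in floxed libraries. It was 1.70 ± 0.28 higher on the log2 scale than in floxed cells (adjusted p = 0.00225). mt-Nd6, a complex I subunit coded by the mitochondrial genome, was at 15.8, 19 and 16.9 CPM in treated deficient and 1.71, 5.98 and 1.78 CPM in floxed libraries (log2 fold change 2.37 ± 0.41, adjusted p = 0.00349), and it was the 1 gene called of 7 mitochondrial genes tested. The calls of these 4 genes held without each library, and mt-Nd6 alone lost its call without the 2 ribosomal-rich libraries together (adjusted p = 0.0528).

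**Figure D2:**
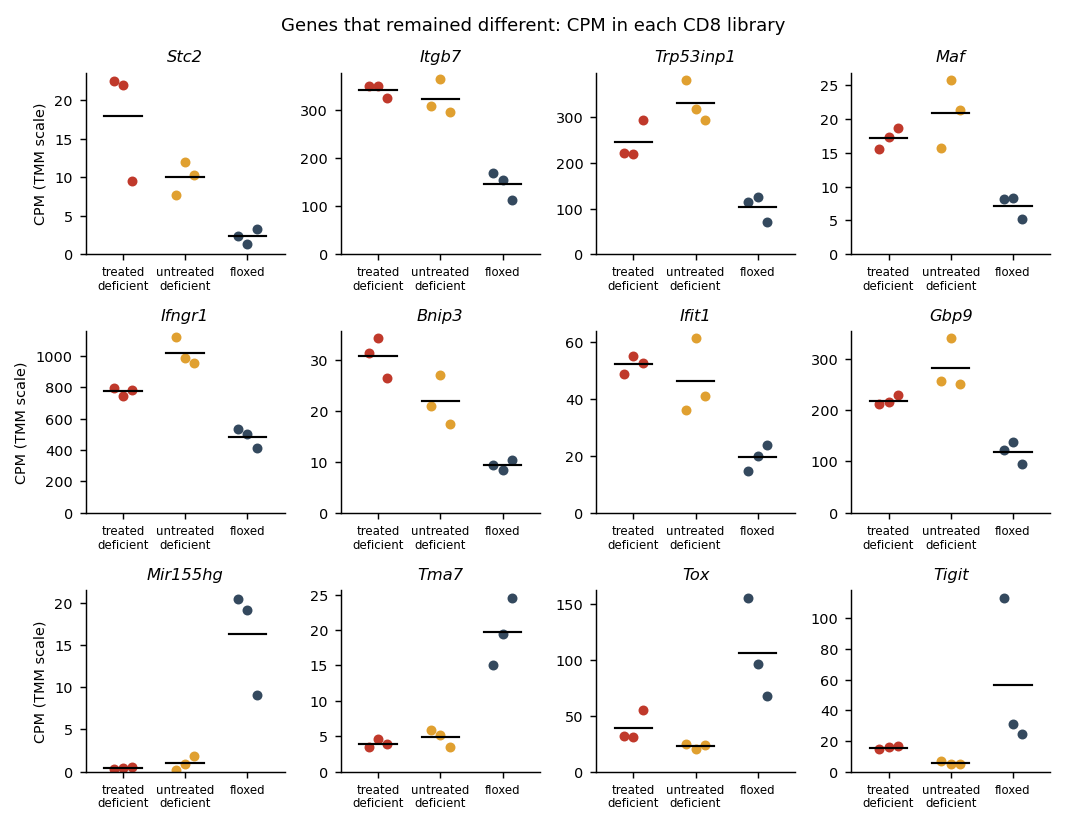
CPM on the TMM scale (y axes, from 0) in each CD8 library for 12 genes that remained different, with treated deficient, untreated deficient and floxed libraries from left to right; dots are libraries and lines are means of 3. The treated deficient libraries lie beyond the floxed range in every panel, and for Tigit and Tox floxed replicate 1 is the highest library.

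Of 39 genes reported as targets of miR-155, 5 remained different from floxed cells after blockade, and Socs1 was among those not called. Trp53inp1, a stress protein that promotes autophagy and cell death, was at 221, 220 and 293 CPM in treated deficient, 382, 317 and 294 CPM in untreated deficient and 114, 126 and 71.2 CPM in floxed libraries. Every treated deficient library was above every floxed one (log2 fold change 1.23 ± 0.21, adjusted p = 0.00438). Ifngr1, the ligand-binding chain of the interferon gamma receptor, was at 792, 747 and 783 CPM in treated deficient, 1120, 984 and 956 CPM in untreated deficient and 532, 503 and 414 CPM in floxed libraries, 3 separate ranges (log2 fold change 0.68 ± 0.13 for treated deficient against floxed, adjusted p = 0.00931). Maf, a transcription factor of interleukin 10 producing and tissue T cells, was at 15.6, 17.4 and 18.6 CPM in treated deficient, 15.7, 25.8 and 21.3 CPM in untreated deficient and 8.13, 8.23 and 5.16 CPM in floxed libraries (log2 fold change 1.23 ± 0.19, adjusted p = 0.0016). The calls of these 3 genes held without each library.

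Socs1, the inhibitor of cytokine signalling whose site is shown above, was at 32.5, 38.1 and 34 CPM in treated deficient, 46.6, 52.6 and 48.2 CPM in untreated deficient and 26.7, 24.5 and 22.1 CPM in floxed libraries. The 3 groups did not overlap, with the treated deficient one in the middle. Its log2 fold change of 0.50 ± 0.15 over floxed cells was not called (adjusted p = 0.0602), while that of untreated deficient cells was (1.01, adjusted p = 0.000111). Inpp5d, the phosphatase SHIP1, was at 226, 196 and 206 CPM in treated deficient and 275, 158 and 176 CPM in floxed libraries, which overlapped (log2 fold change 0.05 ± 0.15, adjusted p = 0.895). Over 39 reported targets, 6 were called higher and 2 lower (median log2 fold change 0.23), against 14 higher and 4 lower in untreated deficient cells (median 0.17), and 5 remained. Of all genes tested, 2.69% were called higher, 2.32% lower and 2.19% remained. For the deletion those shares were 9.64% higher and 9.6% lower. The targets called higher included Trp53inp1, Ifngr1, Maf, Hif1a and Tab2, and those called lower included Csf1r, the macrophage growth factor receptor. Hif1a, the oxygen-sensing transcription factor, had not been called for the deletion, and its call (0.62, adjusted p = 0.018) was lost without treated deficient replicates 1 and 2 and floxed replicate 3 (adjusted p = 0.0709, 0.11 and 0.0537). The count of higher targets was 3 to 8 with single libraries left out, and 3 without treated deficient replicate 1, treated deficient replicate 2 or floxed replicate 3.

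Of 12108 tested genes with an annotated 3′ untranslated region, 1145 (9.46%) held the letters AGCATTA on the transcript strand, an AGCATTAA counting once. Of those 1145, 62 were called higher (5.41%) and 37 lower (3.23%) in treated deficient cells, against 294 higher (2.68%) and 277 lower (2.53%) of the 10963 genes without a match. In untreated deficient cells the shares called higher were 14.4% with and 9.91% without a match, and the shares called lower were 7.6% and 10.9%. Genes that remained higher numbered 34 with and 137 without a match, and those that remained lower 9 and 109. The median untranslated region was 2720 bases long in genes with a match and 1067 bases in genes without, so length moved with the match, and its part in these shares was not tested. Of the 39 reported targets 24 held the letters, of which 4 were called higher and 1 lower. Maf was not among the 24. A match describes the letters and was not measured as a site of binding.

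Among the gene lists, the 2 of interferon-induced genes had the most members that remained higher. Of 39 genes of the type I interferon response, 13 were higher and 0 lower in treated deficient than in floxed cells (median log2 fold change 0.55, against -0.005 over all genes tested), and 10 of the 13 had remained from the deletion. Over all genes tested 2.69% were called higher, 2.32% lower and 2.19% remained. Ifit1, which binds foreign RNA, was at 48.8, 55 and 52.5 CPM in treated deficient, 36.2, 61.3 and 40.9 CPM in untreated deficient and 14.7, 19.9 and 23.9 CPM in floxed libraries. All deficient libraries were above all floxed ones, with or without antibodies (log2 fold change 1.42 ± 0.27 for treated deficient against floxed, adjusted p = 0.00951). Irf7, a transcription factor that amplifies the response, was at 101, 105 and 106 CPM in treated deficient, 102, 143 and 133 CPM in untreated deficient and 49.6, 56.3 and 54.8 CPM in floxed libraries (0.96 ± 0.20, adjusted p = 0.0124). Its call was lost without floxed replicate 1 (adjusted p = 0.0586). Epsti1, at 480, 461 and 425 CPM in treated deficient and 266, 321 and 261 CPM in floxed libraries, had not been called for the deletion (0.69 ± 0.15, adjusted p = 0.016). Leaving out treated deficient replicates 1 and 2 ended that call (adjusted p = 0.0755 and 0.0656).

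Of 36 genes of the interferon gamma response, 15 were higher and 0 lower (median log2 fold change 0.46), of which 9 had remained. The shares over all genes tested were again 2.69% higher, 2.32% lower and 2.19% remained. Gbp9, a guanylate-binding protein of the interferon response, was at 212, 215 and 229 CPM in treated deficient, 257, 341 and 250 CPM in untreated deficient and 123, 138 and 95.4 CPM in floxed libraries. The treated deficient libraries fell between the other 2 groups, with no overlap (0.88 ± 0.17 against floxed, adjusted p = 0.00728). B2m, the light chain of major histocompatibility class I, was at 3450, 3540 and 3280 CPM in treated deficient, 2430, 2760 and 2560 CPM in untreated deficient and 1860, 2520 and 2130 CPM in floxed libraries. It was not called for the deletion, and after blockade every library was above both other groups (0.66 ± 0.15 against floxed, adjusted p = 0.017). That call was lost without treated deficient replicates 1 and 2 and floxed replicate 1 (adjusted p = 0.0676, 0.0738 and 0.0594). Tgtp1, an interferon-inducible GTPase with a near-identical copy, Tgtp2, between which reads can be split, was at 22.5, 15.3 and 18.6 CPM in treated deficient and 8.55, 8.91 and 8.72 CPM in floxed libraries (1.13 ± 0.25, adjusted p = 0.0156). The call ended without treated deficient replicate 1 (adjusted p = 0.0876). Jak2, a kinase of the interferon gamma receptor, also remained higher (0.53 ± 0.11, adjusted p = 0.0138). Without treated deficient replicates 1 and 2, it was not called (adjusted p = 0.06 and 0.0647).

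The direction of both interferon lists held when libraries were left out, but most single calls did not. The median of the type I list was 0.53 to 0.69 and that of the interferon gamma list 0.37 to 0.50 with any 1 library left out. Called members of the type I list numbered 2, 2 and 6 without treated deficient replicates 1, 2 and 3, and 3, 11 and 6 without floxed replicates 1, 2 and 3. Those of the interferon gamma list numbered 1, 3 and 8, and 6, 17 and 4, in the same order, and without the 2 ribosomal-rich libraries together 0 and 2 members of the 2 lists were called. Melanoma markers were higher in every treated deficient than in every floxed library, and macrophage markers lay lower or within the floxed range, as given above. Their part in the interferon genes was not tested. In CD4 cells of the same genotypes and treatments 0 members of the type I list were higher and 6 lower, and 3 members of the interferon gamma list were higher and 2 lower. Of all genes tested, 4.08% were called higher and 8.08% lower in that CD4 comparison.

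**Figure D3:**
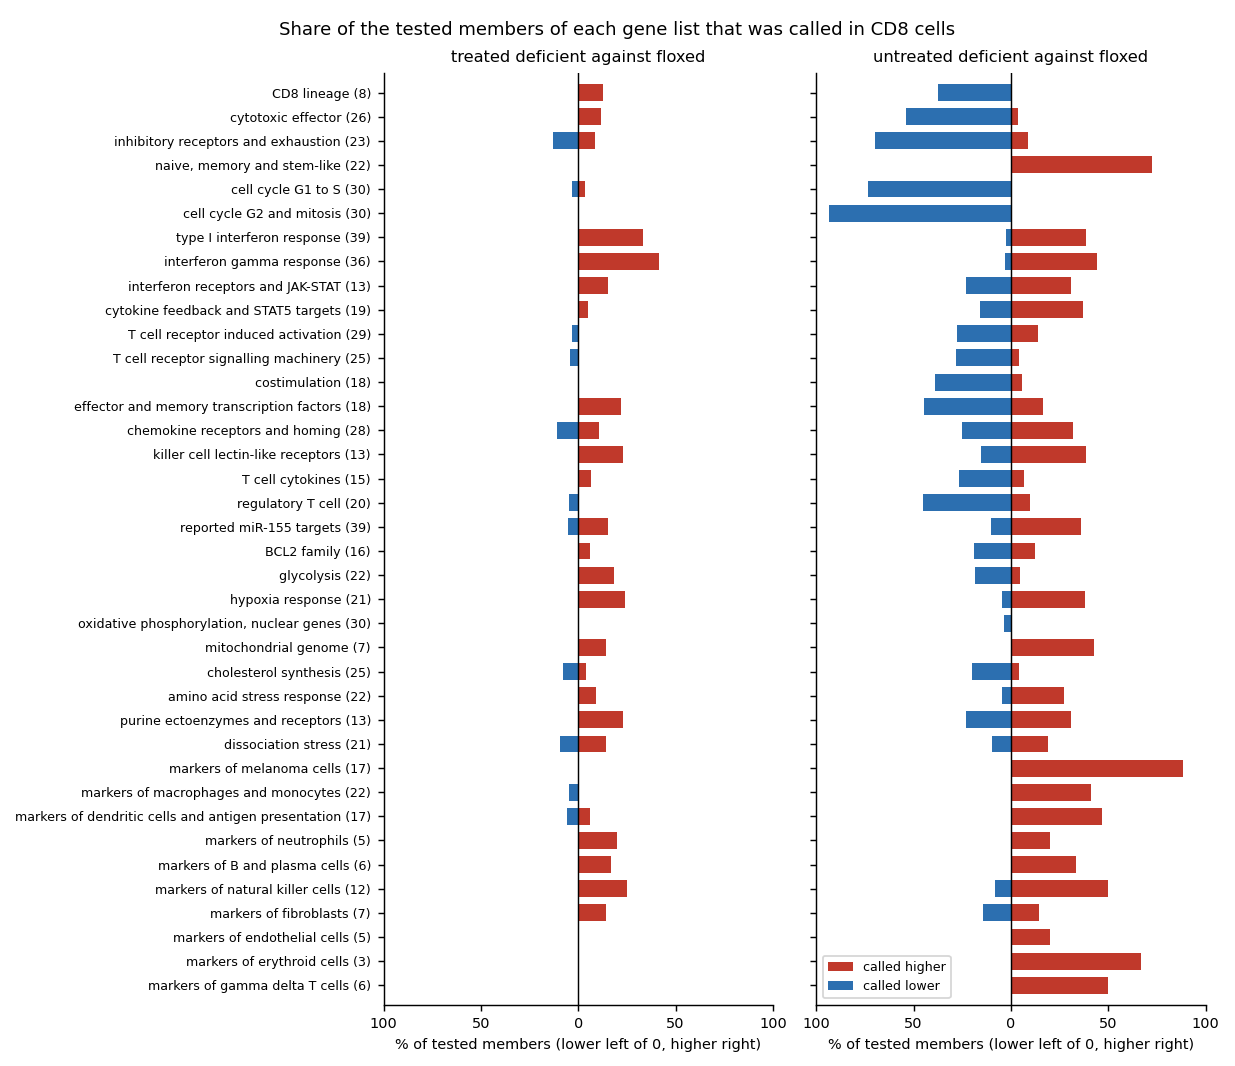
Share of the tested members of each gene list (rows, number tested in parentheses) called higher (red, right of 0) or lower (blue, left of 0) in percent, in treated deficient against floxed CD8 cells on the left and untreated deficient against floxed CD8 cells on the right. The interferon lists have called members to the right in both panels, while the naive and cell cycle lists have many only on the right-hand panel; the panels share the floxed libraries.

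Arg1, Sparc and Tm4sf1, which other cells are known to express, remained higher. Arg1, arginase 1, an enzyme of myeloid cells that consumes arginine, was at 25.5, 24.4 and 36.5 CPM in treated deficient, 56.6, 42.1 and 43.5 CPM in untreated deficient and 5.99, 5.09 and 4.27 CPM in floxed libraries (log2 fold change 2.50 ± 0.47, adjusted p = 0.0115). Its call was lost without floxed replicate 1 (adjusted p = 0.0503). The 3 ranges were separate. Sparc, a matrix glycoprotein of fibroblasts and tumor cells, was at 4.22, 12.4 and 21.5 CPM in treated deficient, 38.4, 37.2 and 14.6 CPM in untreated deficient and 1.85, 1.57 and 0.356 CPM in floxed libraries (3.24 ± 0.87, adjusted p = 0.047). Tm4sf1, a membrane protein of tumor and endothelial cells, was at 1.98, 4.55 and 10.6 CPM in treated deficient, 18.5, 18 and 9.2 CPM in untreated deficient and 0.285, 0.784 and 0 CPM in floxed libraries (3.75 ± 0.95, adjusted p = 0.034). In both genes treated deficient replicate 3 was the highest of its group and untreated deficient replicate 3 the lowest, as in the summed melanoma markers. The call of Sparc was lost without any 1 of the 6 libraries (adjusted p = 0.0523 to 0.199), and that of Tm4sf1 without treated deficient replicates 2 and 3 and floxed replicates 1 and 3 (0.0876, 0.172, 0.121 and 0.0807). Of 17 melanoma markers themselves, edgeR called 0 in treated deficient against floxed cells (9 at an unadjusted p under 0.05, 2 higher by DESeq2 and 14 higher with no filter on low counts), where their median log2 fold change was 2.20, and 15 were higher in untreated deficient cells (median 3.53). Of 7 fibroblast markers tested, edgeR called 1 higher, Sparc, and 0 lower. All 7 had a positive log2 fold change (median 5.29), and 5 had an unadjusted p under 0.05. Among them Col3a1, a collagen, had 17, 111 and 92 reads in treated deficient replicates 1, 2 and 3. It had 4, 154 and 11 reads in untreated deficient and 0, 0 and 2 reads in floxed libraries. The part of RNA of other cells in Arg1, Sparc and Tm4sf1 was not tested.

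Gpr141, an orphan G protein-coupled receptor, was at 25.8, 20.7 and 8.08 CPM in treated deficient, 5.89, 15.1 and 13.8 CPM in untreated deficient and 2, 2.84 and 3.56 CPM in floxed libraries (2.69 ± 0.54, adjusted p = 0.0147). It was lowest in replicate 3 among treated deficient libraries, and its call was lost without treated deficient replicates 1 and 2 and floxed replicate 1 (0.0755, 0.0583 and 0.074). Vegfa, the growth factor of blood vessels, was at 23.2, 21.1 and 29.1 CPM in treated deficient, 30.2, 44.4 and 25.2 CPM in untreated deficient and 6.7, 3.43 and 11.4 CPM in floxed libraries (1.83 ± 0.38, adjusted p = 0.0147). Leaving out treated deficient replicates 1 and 3 and floxed replicate 1 ended that call (adjusted p = 0.0506, 0.0537 and 0.0616). Cd79b, a chain of the B cell receptor, was at 5.34, 7.04 and 6.29 CPM in treated deficient and 1.85, 0.98 and 2.14 CPM in floxed libraries (1.92 ± 0.39, adjusted p = 0.0101). Its call held without each library and was lost without the 2 ribosomal-rich ones together (adjusted p = 0.076). The summed markers of B and plasma cells stood at 102, 99.3 and 133 CPM in treated deficient and 86.5, 83.8 and 84.9 CPM in floxed libraries. Hspa1a, an inducible heat shock protein with a near-identical copy, Hspa1b, was at 74.6, 55 and 53.1 CPM in treated deficient, 59.9, 25.2 and 24.1 CPM in untreated deficient and 18.8, 13 and 10.1 CPM in floxed libraries (2.12 ± 0.36, adjusted p = 0.00629). Of 21 genes of the dissociation stress list, 3 were higher and 2 lower (median -0.03), against 2.69% and 2.32% of all genes tested.

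Genes that remained lower included Tma7 and Rpl29 of chromosome 9, the receptor Tigit and the transcription factors Tox and Nfatc1. Tma7, a protein associated with the translation machinery (chr9:109074568-109082587), was at 3.45, 4.55 and 3.88 CPM in treated deficient, 5.89, 5.11 and 3.49 CPM in untreated deficient and 15, 19.4 and 24.6 CPM in floxed libraries (log2 fold change -2.34 ± 0.35, adjusted p = 0.00104). Rpl29, a ribosomal protein of the large subunit with processed copies elsewhere in the genome, so that its count is uncertain (chr9:106429454-106431568), was at 1.9, 0.828 and 0.839 CPM in treated deficient, 3.06, 4.34 and 3.33 CPM in untreated deficient and 12.5, 16.4 and 13.7 CPM in floxed libraries (-3.45 ± 0.45, adjusted p = 0.000438). In both genes every deficient library was below every floxed one, and both calls held without each library. They were also lower in treated deficient CD4 cells, by -2.95 (Tma7, adjusted p = 2.16e-05) and -3.01 (Rpl29, adjusted p = 0.00013).

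Tox, a transcription factor of exhausted T cells, was at 31.5, 30.6 and 55.3 CPM in treated deficient, 24.5, 19.9 and 24.1 CPM in untreated deficient and 156, 96.3 and 67.8 CPM in floxed libraries. It lay between the other 2 groups, below every floxed library (log2 fold change -1.43 ± 0.27, adjusted p = 0.00699). The call ended without treated deficient replicate 2 (adjusted p = 0.051). Tigit, an inhibitory receptor, was at 14.4, 15.7 and 16.5 CPM in treated deficient, 6.84, 5.24 and 4.6 CPM in untreated deficient and 113, 31 and 24.6 CPM in floxed libraries (-1.86 ± 0.46, adjusted p = 0.0329). Nfatc1, a calcium-dependent transcription factor, was at 63.7, 51.7 and 70.2 CPM in treated deficient, 48.7, 48.5 and 78.4 CPM in untreated deficient and 332, 92.2 and 119 CPM in floxed libraries (-1.54 ± 0.39, adjusted p = 0.0382). For Tigit and Nfatc1 floxed replicate 1 was far above the other floxed libraries. Their calls were lost without treated deficient replicates 1, 2 and 3 and without floxed replicate 1 (Tigit 0.111, 0.117, 0.105 and 0.125; Nfatc1 0.115, 0.152, 0.107 and 0.103).

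Long transcripts and floxed replicate 1 stood out among the genes called lower. The median exonic length was 7657 bases in the 327 genes called lower, 3605 bases in the 379 called higher and 3773 bases in all genes tested. In 249 of the 327 (76.1%) floxed replicate 1 was the highest floxed library, as it was in 38.0% of all genes tested. In 65 of them (19.9%, against 7.88% of all genes) it was at least 2 times the next floxed library. Without floxed replicate 1, 75 genes were called lower and 186 higher, and without treated deficient replicates 1, 2 and 3 the genes called lower numbered 42, 21 and 51. The part of floxed replicate 1 in these calls was not tested.

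Of the 19 overshot genes, Klrg1 and Fgl2 were the named ones whose call held whichever library was left out. Overshot genes were named only if neither deficient group overlapped with the floxed libraries, so their separation below was set by that rule. Klrg1, a lectin-like inhibitory receptor of short-lived effector cells (chr6:122270596-122282882), was at 24.4, 22.3 and 24.4 CPM in treated deficient, 1.89, 2.43 and 4.76 CPM in untreated deficient and 5.42, 7.54 and 5.52 CPM in floxed libraries. The order of the groups was treated deficient, floxed and untreated deficient, with no overlap. It was 1.93 ± 0.26 higher in treated deficient and 1.09 lower in untreated deficient than in floxed cells on the log2 scale (log2 fold changes 1.93, adjusted p = 0.000502, and -1.09, adjusted p = 0.0199). Fgl2, a fibrinogen-like protein that T cells secrete (chr5:21372642-21378374), was at 600, 552 and 592 CPM in treated deficient, 83.3, 173 and 138 CPM in untreated deficient and 233, 260 and 191 CPM in floxed libraries. Its groups had the same order and did not overlap (1.35 ± 0.20, adjusted p = 0.00112, in treated deficient and -0.80, adjusted p = 0.00766, in untreated deficient against floxed cells). These 2 genes were called against floxed cells without each library and without the 2 ribosomal-rich libraries together (adjusted p = 0.0214 for Klrg1 and 0.0269 for Fgl2).

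**Figure D4:**
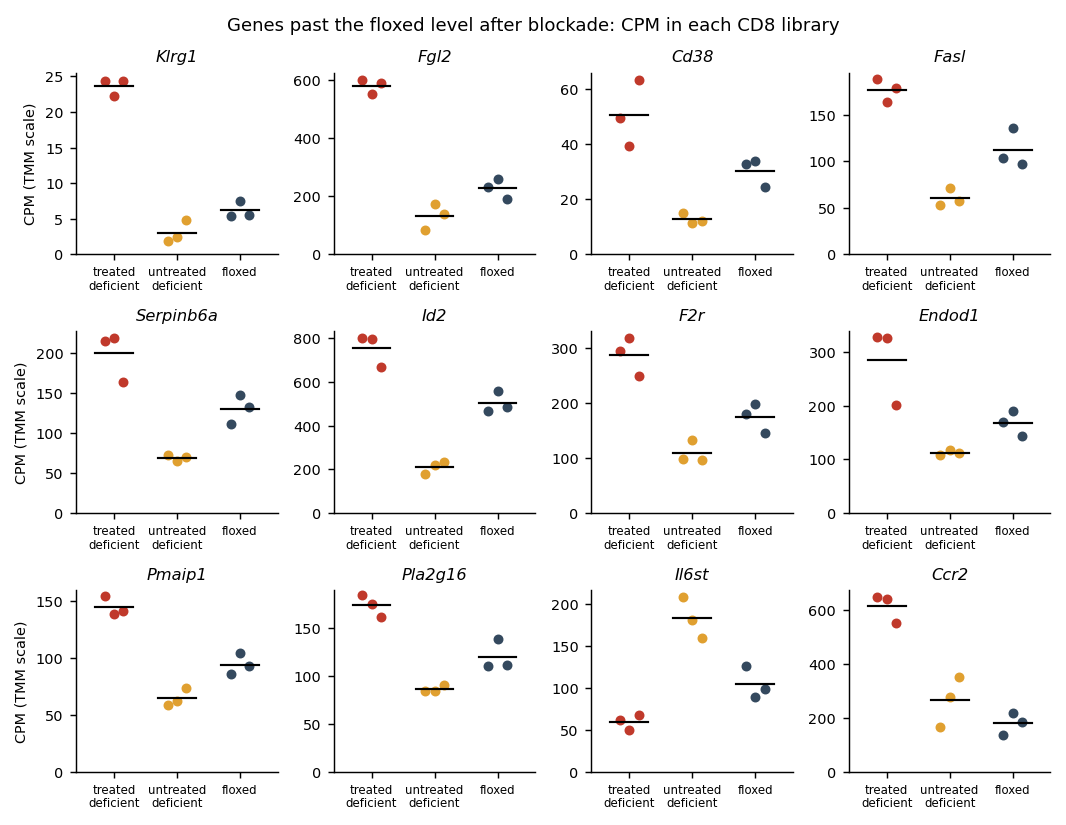
CPM on the TMM scale (y axes, from 0) in each CD8 library for 11 overshot genes and Ccr2, with treated deficient, untreated deficient and floxed libraries from left to right; dots are libraries and lines are means of 3. Klrg1 and Fgl2 had the largest log2 fold changes in treated deficient against floxed cells among the 11 overshot genes. Il6st is the 1 gene that is lowest in treated deficient cells.

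The other named overshot genes went past the floxed level by smaller log2 fold changes. Cd38, an ectoenzyme that degrades NAD, was at 49.7, 39.3 and 63.5 CPM in treated deficient, 15, 11.5 and 11.9 CPM in untreated deficient and 32.9, 33.9 and 24.4 CPM in floxed libraries (0.75 ± 0.19 against floxed, adjusted p = 0.0285). Without treated deficient replicates 1 and 3 and floxed replicates 1 and 3, it was not called (adjusted p = 0.0862, 0.162, 0.0508 and 0.094). Id2, a regulator that promotes effector differentiation, was at 800, 798 and 666 CPM in treated deficient, 179, 219 and 234 CPM in untreated deficient and 468, 558 and 485 CPM in floxed libraries (0.58 ± 0.15, adjusted p = 0.034). Its call was lost without treated deficient replicates 1 and 2 and floxed replicates 1 and 3 (adjusted p = 0.126, 0.13, 0.0911 and 0.0761). Fasl, the ligand that triggers death through Fas, was at 189, 164 and 179 CPM in treated deficient, 52.9, 71.9 and 57.1 CPM in untreated deficient and 104, 136 and 97 CPM in floxed libraries (0.66 ± 0.19, adjusted p = 0.0455). In these 3 genes each treated deficient library was above each floxed one, and each untreated deficient library below, as the naming rule required. The call of Fasl held only without floxed replicate 2 and was otherwise lost (0.102 to 0.151 without one of the other 5 libraries).

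F2r, the thrombin receptor PAR1, rose by 0.72 ± 0.15 against floxed cells (adjusted p = 0.0135; 0.0613 and 0.0742 without treated deficient replicates 1 and 2), at 295, 319 and 249 CPM in treated deficient and 179, 198 and 146 CPM in floxed libraries. Pmaip1, the death-promoting BCL2 family member NOXA, was at 155, 139 and 141 CPM in treated deficient, 59, 62.2 and 73.8 CPM in untreated deficient and 85.8, 104 and 92.9 CPM in floxed libraries (0.62 ± 0.15, adjusted p = 0.02). Leaving out treated deficient replicates 1, 2 and 3 and floxed replicate 1 ended that call (adjusted p = 0.0995, 0.0647, 0.0532 and 0.0656). Serpinb6a, an intracellular protease inhibitor, was 0.62 ± 0.17 higher (adjusted p = 0.0358). The call ended without treated deficient replicates 1 and 2 and floxed replicates 1 and 3 (adjusted p = 0.151, 0.148, 0.121 and 0.0696). Neither F2r nor Pmaip1 overlapped between treated deficient and floxed libraries. Endod1 was 0.76 ± 0.17 higher (adjusted p = 0.0156; 0.0876, 0.087 and 0.0508 without treated deficient replicates 1 and 2 and floxed replicate 3), and Pla2g16, a phospholipase, 0.54 ± 0.15 higher (adjusted p = 0.041; 0.0684 to 0.151 without any library but floxed replicate 2). Il6st, the signalling chain gp130 shared by receptors of the interleukin 6 family, was the 1 gene that overshot downward. It was at 61.2, 50.1 and 67.9 CPM in treated deficient, 209, 181 and 160 CPM in untreated deficient and 126, 88.7 and 98.3 CPM in floxed libraries (-0.79 ± 0.18, adjusted p = 0.0165). Without treated deficient replicates 1 and 2 and floxed replicate 1, it was not called (adjusted p = 0.0604, 0.0946 and 0.0672). All 3 groups were separate.

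Genes that passed the floxed level without a deletion call included a chemokine receptor, a granzyme and genes of glycolysis. Ccr2, the receptor for the monocyte chemoattractant CCL2 (chr9:124101950-124113557), was at 650, 642 and 555 CPM in treated deficient, 165, 276 and 353 CPM in untreated deficient and 136, 218 and 185 CPM in floxed libraries. Treated deficient libraries were above all others (1.78 ± 0.24 against floxed, adjusted p = 0.000754). Gzma, a granule protease, was at 174, 177 and 157 CPM in treated deficient, 34.3, 48.4 and 42.7 CPM in untreated deficient and 64.9, 49.2 and 47.7 CPM in floxed libraries (1.65 ± 0.32, adjusted p = 0.0112). Ppp1r3b, which directs a phosphatase to glycogen, was at 28.2, 33.5 and 25.6 CPM in treated deficient, 7.78, 7.28 and 10.3 CPM in untreated deficient and 13.4, 11.3 and 3.2 CPM in floxed libraries (1.60 ± 0.32, adjusted p = 0.00998). The calls of Ccr2, Gzma and Ppp1r3b held without each library, and that of Gzma was lost without the 2 ribosomal-rich ones together (adjusted p = 0.0952). Ifitm1, an interferon-induced membrane protein, was at 22.4, 16.6 and 11 CPM in treated deficient, 4.01, 3.32 and 1.75 CPM in untreated deficient and 7.27, 4.6 and 4.09 CPM in floxed libraries (1.64 ± 0.31, adjusted p = 0.00728). Its call was lost without treated deficient replicate 1 (adjusted p = 0.0665).

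Of 22 glycolysis genes 4 were higher and 0 lower in treated deficient than in floxed cells (median log2 fold change 0.32), all 4 of them in the passed class, against 1 higher and 4 lower in untreated deficient cells (median -0.15). In treated deficient against floxed cells 2.69% of all genes tested were called higher and 2.32% lower. For the deletion these shares were 9.64% and 9.6%. Aldoa, an aldolase, was at 1600, 1530 and 1380 CPM in treated deficient, 867, 944 and 815 CPM in untreated deficient and 957, 1000 and 1100 CPM in floxed libraries (0.56 ± 0.12, adjusted p = 0.0131). Leaving out treated deficient replicates 1 and 2 ended that call (adjusted p = 0.0721 and 0.06). Slc16a3, a lactate exporter, was at 193, 206 and 150 CPM in treated deficient and 120, 112 and 111 CPM in floxed libraries (0.68 ± 0.16, adjusted p = 0.0196). The call ended without the same replicates (adjusted p = 0.0838 and 0.103). Of 21 hypoxia genes 5 were higher and 0 lower (median 0.55), with Hilpda, a lipid droplet protein, at 73, 79.5 and 54.1 CPM in treated deficient and 38.1, 33 and 27.8 CPM in floxed libraries (1.05 ± 0.21, adjusted p = 0.00998). Without treated deficient replicate 2, it was not called (adjusted p = 0.0574). Each of these 3 genes had every treated deficient library above every floxed one. Called glycolysis genes numbered 1 without treated deficient replicate 1 and 0 without treated deficient replicate 2, and called hypoxia genes 2, 2, 3 and 3 without treated deficient replicates 1, 2 and 3 and floxed replicate 3.

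Several genes that passed below the floxed level were highest in floxed replicate 3, the floxed library with the most macrophage transcripts. Csf1r was at 44.1, 34.8 and 26.4 CPM in treated deficient, 155, 167 and 399 CPM in untreated deficient and 72.1, 96.9 and 513 CPM in floxed libraries (-2.69 ± 0.69, adjusted p = 0.044). Btk, a kinase of B and myeloid cells, was at 1.72, 1.66 and 2.31 CPM in treated deficient, 6.6, 11.4 and 23.8 CPM in untreated deficient and 6.13, 6.17 and 30.3 CPM in floxed libraries (-2.83 ± 0.67, adjusted p = 0.0271). Replicate 3 was the highest library in the untreated deficient and the floxed group for both genes, as it was for the summed macrophage markers. The calls of Csf1r and Btk were lost without treated deficient replicates 1, 2 and 3 and floxed replicate 3 (0.114, 0.146, 0.159 and 0.135 for Csf1r; 0.118, 0.106, 0.0959 and 0.0634 for Btk). The part of macrophage RNA was not tested. Of 22 macrophage markers 0 were higher and 1 lower (Csf1r), and of 17 dendritic cell markers 1 was higher and 1 lower, against 2.69% higher and 2.32% lower of all genes tested. The higher one was Itgax, the integrin chain CD11c, which activated CD8 T cells also carry (1.36 ± 0.31, adjusted p = 0.0196; 0.0707, 0.0574 and 0.0661 without treated deficient replicates 1, 2 and 3), and the lower one was Flt3 (-3.01 ± 0.70, adjusted p = 0.0197). The call of Flt3 was lost without the same replicates (adjusted p = 0.0915, 0.0642 and 0.0915).

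Lists of effector function, inhibitory receptors, naive cells and the cell cycle had many deletion calls, and their calls after blockade were fewer, as they were over all genes (5.01% called, against 19.2% for the deletion). Of 26 cytotoxic genes 3 were higher and 0 lower in treated deficient than in floxed cells (median log2 fold change 0.48), against 1 higher and 14 lower in untreated deficient cells (median -0.96). Gzmb, the main granule protease, was at 5450, 5130 and 3440 CPM in treated deficient, 466, 1110 and 682 CPM in untreated deficient and 2600, 2760 and 2310 CPM in floxed libraries. Each treated deficient library was above each floxed one, and the difference of 0.87 ± 0.25 was on the edge of the threshold (adjusted p = 0.0531). Its call turned with the method, since the adjusted p was 0.00783 by DESeq2, 0.0377 by limma voom and 0.0498 with the replicate block. Prf1, perforin, overlapped between groups, at 1660, 1550 and 1060 CPM in treated deficient and 1390, 1520 and 1070 CPM in floxed libraries (0.10 ± 0.41, adjusted p = 0.929), and so did Ifng, interferon gamma, at 773, 826 and 757 CPM and 636, 902 and 721 CPM (0.06 ± 0.41, adjusted p = 0.959). With other tests the count of cytotoxic genes called higher was 7 by DESeq2, 6 by limma voom and 13 with no filter on low counts. It was 1, 1 and 2 without treated deficient replicates 1 and 2 and floxed replicate 1, and 2 without floxed replicate 3.

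Of 23 inhibitory receptor and exhaustion genes 2 were higher and 3 lower (median -0.04), against 2 higher and 16 lower for the deletion (median -1.58). Pdcd1, the receptor PD-1, was at 837, 821 and 750 CPM in treated deficient, 251, 277 and 233 CPM in untreated deficient and 791, 932 and 714 CPM in floxed libraries (-0.02 ± 0.14, adjusted p = 0.963). Havcr2, the receptor TIM-3, was at 608, 606 and 409 CPM in treated deficient, 56.2, 122 and 73.9 CPM in untreated deficient and 518, 631 and 468 CPM in floxed libraries (0.00 ± 0.26, adjusted p = 0.997). Entpd1, the ectoenzyme CD39, was at 167, 165 and 147 CPM in treated deficient, 19.2, 40.5 and 30.9 CPM in untreated deficient and 149, 163 and 130 CPM in floxed libraries (0.12 ± 0.17, adjusted p = 0.755). In all 3 genes treated deficient and floxed libraries overlapped and untreated deficient ones lay below both. Lag3, a further inhibitory receptor, was 0.71 ± 0.28 lower and not called (log2 fold change -0.71, adjusted p = 0.146), with floxed replicate 1 at 263 CPM the highest library. Ctla4, the second antibody target, was at 394, 384 and 338 CPM in treated deficient, 116, 129 and 106 CPM in untreated deficient and 296, 325 and 245 CPM in floxed libraries (0.37 ± 0.18, adjusted p = 0.226).

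**Figure D5:**
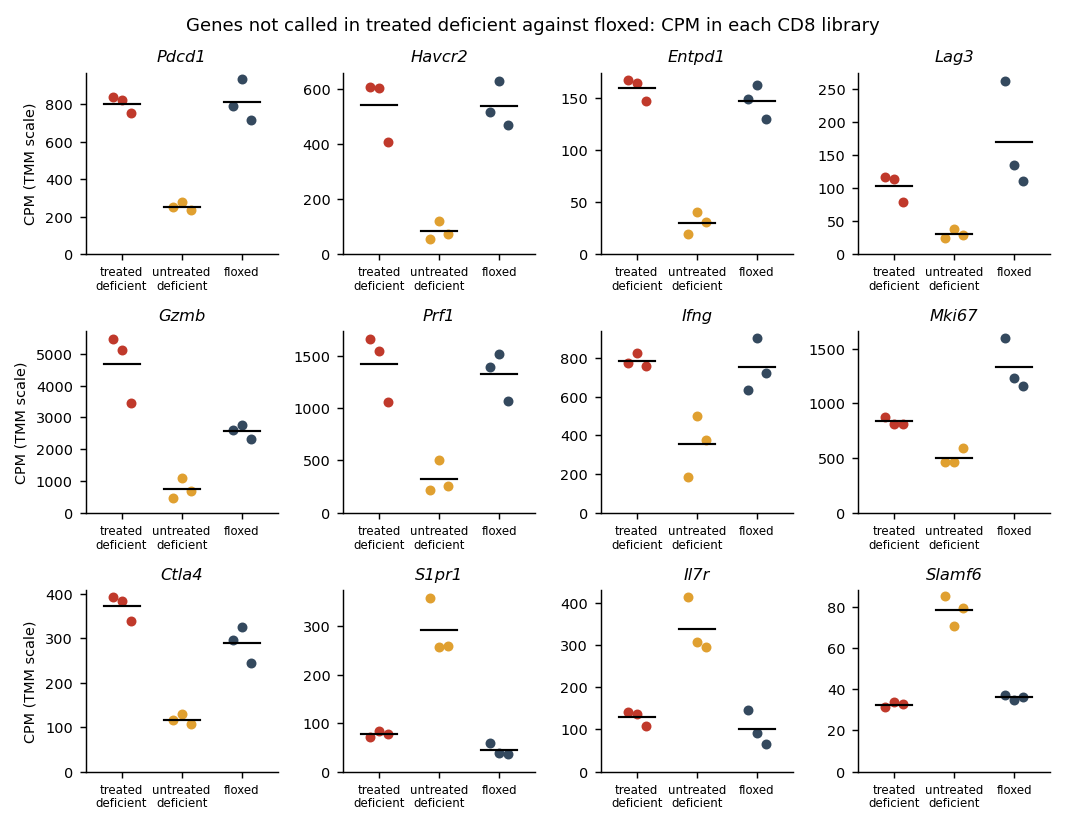
CPM on the TMM scale (y axes, from 0) in each CD8 library for 12 genes not called in treated deficient against floxed cells, with treated deficient, untreated deficient and floxed libraries from left to right; dots are libraries and lines are means of 3. Pdcd1, Havcr2 and Entpd1 overlap between treated deficient and floxed libraries, while Gzmb, Mki67 and S1pr1 do not.

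Of 22 naive, memory and stem-like genes edgeR called 0 in either direction (median -0.05; 6 at an unadjusted p under 0.05), against 16 higher and 0 lower for the deletion (median 1.54). DESeq2 called 1 of them higher and 1 lower, limma voom 0, edgeR without floxed replicate 1 called 2 higher, and edgeR with no filter on low counts called 5 higher and 5 lower. The median of the list was -0.16 to 0.58 over the alternatives, so its sign was not settled. S1pr1, which guides lymphocytes out of tissue, was at 71.2, 84.4 and 77.7 CPM in treated deficient, 358, 256 and 259 CPM in untreated deficient and 58.2, 38.6 and 35.6 CPM in floxed libraries (0.81 ± 0.28, adjusted p = 0.103). S1pr1 stood above floxed cells in every treated deficient library without reaching the threshold. Tcf7, a transcription factor of stem-like cells, was at 55.7, 52.6 and 70.4 CPM in treated deficient, 268, 214 and 221 CPM in untreated deficient and 174, 49.9 and 35.1 CPM in floxed libraries (-0.53 ± 0.48, adjusted p = 0.58), where floxed replicate 1 set the spread.

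Of 30 genes of G2 and mitosis edgeR called 0 (3 at an unadjusted p under 0.05; DESeq2 and limma voom each called 1 lower), against 0 higher and 28 lower for the deletion, and of 30 genes of G1 to S phase 1 was higher and 1 lower, against 0 and 22. Mki67, the proliferation marker, was at 879, 808 and 816 CPM in treated deficient, 460, 461 and 592 CPM in untreated deficient and 1600, 1230 and 1160 CPM in floxed libraries. The treated deficient libraries lay below every floxed one, at a log2 fold change of -0.67 ± 0.20 that was not called (adjusted p = 0.0528). Here too the method decided, as Mki67 was called lower by DESeq2 (adjusted p = 0.0114), limma voom (0.0442), RLE scaling (0.0466) and the replicate block (0.0432). Pole, a catalytic subunit of DNA polymerase, remained lower (-0.68 ± 0.16, adjusted p = 0.02), at 149, 127 and 146 CPM in treated deficient, 96.4, 115 and 101 CPM in untreated deficient and 239, 220 and 221 CPM in floxed libraries. Its call held only without floxed replicates 2 and 3 and was lost without the other 4 libraries (0.0599 to 0.112). Ccne2, cyclin E2, passed the floxed level (0.89 ± 0.20, adjusted p = 0.0165). Leaving out treated deficient replicates 1 and 2 and floxed replicate 1 ended that call (adjusted p = 0.083, 0.082 and 0.0638).

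Chemokine receptor and homing genes moved in both directions, 3 higher and 3 lower of 28 (median 0.41). For this list and those below, the shares over all genes tested were 2.69% higher and 2.32% lower. Besides Ccr2 and Itgb7, Cd44, an adhesion receptor of activated cells, was lower, at 150, 157 and 192 CPM in treated deficient, 202, 218 and 224 CPM in untreated deficient and 312, 251 and 232 CPM in floxed libraries (-0.67 ± 0.15, adjusted p = 0.017). The groups did not overlap, and the call was lost without treated deficient replicates 1 and 2 and floxed replicate 1 (0.0794, 0.094 and 0.0718). Cxcr6, a receptor of tumor-resident cells, was at 1130, 1150 and 1150 CPM in treated deficient, 220, 268 and 263 CPM in untreated deficient and 687, 980 and 724 CPM in floxed libraries (0.52 ± 0.18, adjusted p = 0.0901). Of 13 killer cell lectin-like receptors 3 were higher and 0 lower (median 0.74), namely Klrg1, Klrb1f and Klra7. Klrb1f was called without floxed replicate 2 and was lost without each of the other 5 libraries (adjusted p = 0.0732 to 0.135). Klra7, an inhibitory Ly49 receptor of a family with near-identical members, so that its count is uncertain, was at 33.3, 29.4 and 43.6 CPM in treated deficient, 95, 90.5 and 93 CPM in untreated deficient and 18.5, 14.9 and 3.2 CPM in floxed libraries (1.52 ± 0.36, adjusted p = 0.0245). The call ended without treated deficient replicates 1, 2 and 3 (adjusted p = 0.0701, 0.0647 and 0.0887). Natural killer cells share these receptors. Of 12 natural killer cell markers tested, 11 had a positive log2 fold change (median 1.01), with 3 called higher (Gzma, Klra7 and Klra1) and 0 lower. Among the markers, Ncr1 had 16, 2 and 5 reads in treated deficient and 0, 4 and 0 reads in floxed libraries. The summed list stood at 957 to 1000 CPM in treated deficient and 701 to 861 CPM in floxed libraries, in part from genes that CD8 T cells also express. Nkg7 alone had means of 524 and 528 CPM. The part of natural killer cell RNA was not tested.

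The same comparison in CD4 cells differed from that in CD8 cells for 736 genes (5.23% of 14080) by edgeR's test of the difference itself. The labels do not say whether CD4 and CD8 libraries share mice, and the test treats them as separate. Deviations of same-numbered CD8 and CD4 libraries had correlations of 0.11, 0.10 and 0.29 in treated deficient and 0.00, 0.03 and 0.09 in floxed groups. Those of different numbers had -0.16 to 0.05 and -0.09 to 0.07. No pairing of the cell types was fitted. The 736 genes lead with Maf among those named. Its log2 fold change was 1.23 in CD8 and -0.44 in CD4 cells (difference 1.67 ± 0.25, adjusted p = 0.000549). Fgl2 was another, at 1.35 in CD8 and -0.52 in CD4 cells (difference 1.87 ± 0.28, adjusted p = 0.000678), and so was Irf7, at 0.96 and -0.81 (1.77 ± 0.28, adjusted p = 0.000989). In CD4 cells 20 of 22 macrophage markers were lower in treated deficient than in floxed libraries, and the part of macrophage RNA in these differences was not tested. By position, 3.2 to 6.2% of the tested genes were called on each of chromosomes 1 to 19 and X. The window of 10 Mb with the highest share, 3 of 14 genes (21.4%), lay on chromosome 15, whereas with windows of 5 Mb the highest share lay on chromosome 12 (3 of 10 genes). The chromosome 15 window held Rai14, an actin-binding protein, Sub1, a transcription coactivator, and Drosha, the nuclease that cuts primary microRNAs. Rai14 remained higher (1.41 ± 0.27, adjusted p = 0.00803). That call held without each library and was lost without the 2 ribosomal-rich ones together (adjusted p = 0.122). Sub1 was called without 1 of the 6 libraries only, floxed replicate 2. Drosha remained lower, at 25.9, 26.5 and 26 CPM in treated deficient, 27.7, 32.1 and 36 CPM in untreated deficient and 79.3, 39.3 and 52.3 CPM in floxed libraries (-1.12 ± 0.22, adjusted p = 0.00998). Without floxed replicate 1, it was not called (adjusted p = 0.0523). All deficient libraries were below all floxed ones.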

How the data were processed

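RNA sequencing of CD8 and CD4 T cells sorted from tumors gave 18 libraries, 3 in each of 6 groups. The deposited counts are whole reads per gene model, made by the authors with featureCounts 1.5.1 at strand option 2 on the Ensembl release 87 annotation of GRCm38, per the file headers; STAR is named in the submitters' processing notes. EdgeR 4.0.16 (R 4.3.3) fitted all 18 libraries with TMM scaling, filterByExpr by group and the robust quasi-likelihood test, adjusted by Benjamini-Hochberg over 14080 genes and called at 0.05 with 12 residual degrees of freedom. Alternatives used DESeq2 1.42.0, limma 3.58.1 (voom), other scaling and filters, fewer libraries and a replicate block. CPM are TMM-scaled. The script was tested on simulated data.

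Genes were named by rule: a fixed panel, the largest changes among called genes, the leading remained, overshot and passed genes, and up to 3 members per gene list. The largest changes and the leading remained, overshot and passed genes needed at least 5 CPM and treated deficient libraries that did not overlap with floxed ones. Remained and overshot genes also needed this of untreated deficient libraries. For genes named so, separate libraries are therefore no added result. Tab2 was named after its values were seen. Members, lists and the rule were chosen with earlier results of these data known. Replicates are pools of tumors from separate mice. Same-numbered treated deficient and floxed libraries did not deviate together (correlations 0.01, 0.04 and -0.02), so the numbers do not pair them. Some genes that the rule names are not reported here. GENCODE M21 supplied coordinates and 3′ untranslated regions, with 49412 of 49671 gene IDs matched.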

Additional observations from a re-analysis of the deposited data

Results flagged for a closer look

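For 25 named genes the log2 fold change of treated deficient against floxed cells differed between CD8 and CD4 cells by edgeR's quasi-likelihood test of the difference itself. Each difference is the CD8 value minus the CD4 value. The cause of these differences was not tested.

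Maf, a transcription factor, had a difference of 1.67 (adjusted p = 0.000549), from 1.23 in CD8 and -0.44 in CD4 cells. Irf7, an interferon regulatory factor, had a difference of 1.77 (adjusted p = 0.000989), from 0.96 in CD8 and -0.81 in CD4 cells. B2m, the class I light chain, had a difference of 0.87 (adjusted p = 0.0202), from 0.66 in CD8 and -0.21 in CD4 cells. Ifitm1, an interferon-induced membrane protein, had a difference of 1.59 (adjusted p = 0.0368), from 1.64 in CD8 and 0.06 in CD4 cells. Fgl2, a secreted fibrinogen-like protein, had a difference of 1.87 (adjusted p = 0.000678), from 1.35 in CD8 and -0.52 in CD4 cells. Klrg1, an inhibitory receptor, had a difference of 1.60 (adjusted p = 0.00956), from 1.93 in CD8 and 0.33 in CD4 cells. Cd38, an ectoenzyme, had a difference of 1.55 (adjusted p = 0.00211), from 0.75 in CD8 and -0.80 in CD4 cells. Ccr2, a chemokine receptor, had a difference of 1.98 (adjusted p = 0.00236), from 1.78 in CD8 and -0.20 in CD4 cells. Pmaip1, a death-promoting protein, had a difference of 0.82 (adjusted p = 0.024), from 0.62 in CD8 and -0.20 in CD4 cells. All 9 were higher in treated deficient than in floxed CD8 cells.

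Gzma, a granule protease, had a difference of 1.93 (adjusted p = 0.024), from 1.65 in CD8 and -0.28 in CD4 cells. Srgn, the granule proteoglycan serglycin, had a difference of 0.66 (adjusted p = 0.0468), from 0.62 in CD8 and -0.04 in CD4 cells. Klra7, a Ly49 receptor, had a difference of 3.46 (adjusted p = 0.00196), from 1.52 in CD8 and -1.93 in CD4 cells. Klra1, a Ly49 receptor of the same family, had a difference of 3.19 (adjusted p = 0.00216), from 1.30 in CD8 and -1.90 in CD4 cells. Bnip3, a mitophagy protein, had a difference of 1.34 (adjusted p = 0.04), from 1.70 in CD8 and 0.36 in CD4 cells. Vegfa, a vascular growth factor, had a difference of 1.96 (adjusted p = 0.0361), from 1.83 in CD8 and -0.12 in CD4 cells. Hspa1a, a heat shock protein, had a difference of 2.45 (adjusted p = 0.00941), from 2.12 in CD8 and -0.32 in CD4 cells. mt-Nd6, a mitochondrial complex I subunit, had a difference of 2.10 (adjusted p = 0.032), from 2.37 in CD8 and 0.27 in CD4 cells. Reads of Klra7, Klra1 and Hspa1a can be split with near-identical copies.

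Itgax, the integrin CD11c, had a difference of 2.89 (adjusted p = 0.000927), from 1.36 in CD8 and -1.53 in CD4 cells. Arg1, arginase 1, had a difference of 3.72 (adjusted p = 0.00329), from 2.50 in CD8 and -1.22 in CD4 cells. Gpr141, an orphan receptor, had a difference of 4.16 (adjusted p = 0.00335), from 2.69 in CD8 and -1.47 in CD4 cells. In CD4 cells 20 of 22 macrophage markers and 10 of 17 dendritic cell markers were lower in treated deficient than in floxed libraries, against 8.08% of all genes tested. The part of RNA of such cells in these 3 genes, and in the other genes of this section, was not tested.

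Mki67, a proliferation marker, had a difference of -1.46 (adjusted p = 0.00486), from -0.67 in CD8 and 0.79 in CD4 cells. Pole, a DNA polymerase subunit, had a difference of -1.02 (adjusted p = 0.0122), from -0.68 in CD8 and 0.35 in CD4 cells. Fasn, fatty acid synthase, had a difference of -1.17 (adjusted p = 0.0148), from -0.76 in CD8 and 0.41 in CD4 cells. Scd2, a fatty acid desaturase, had a difference of -1.50 (adjusted p = 0.0063), from -0.89 in CD8 and 0.61 in CD4 cells. Drosha, a nuclease of microRNA processing, had a difference of -1.24 (adjusted p = 0.0277), from -1.12 in CD8 and 0.12 in CD4 cells. The difference was negative for these 5 genes. In CD8 cells alone, with each of the 6 libraries left out in turn, treated deficient against floxed was called in 4 cases for Srgn, 2 for Scd2, 1 for Fasn and 0 for Klra1.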

How the results depend on the processing

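The counts of genes depended on the libraries and the test, and the cause was not tested. With 1 CD8 library left out, calls in treated deficient against floxed CD8 cells ranged from 111 to 1503 (higher 90 to 678, lower 21 to 825), remained genes from 79 to 735, overshot genes from 2 to 23, passed genes from 17 to 343, deletion calls from 1641 to 2716, blockade calls from 918 to 2392 and, with 1 library of either cell type left out, genes that differed between CD8 and CD4 cells from 352 to 1191. With no filter on low counts there were 1574 calls (679 higher, 895 lower), with 760 remained, 100 overshot and 382 passed genes. DESeq2 gave 1345 calls (590 higher, 755 lower), 599 remained, 31 overshot and 331 passed genes and 1295 for the difference between cell types. Limma voom called 180 lower. A fit of the CD8 libraries alone gave 439 calls (147 lower) and 90 passed genes, and one of the 6 libraries alone 80 (62 higher, 18 lower). Without the 2 ribosomal-rich libraries, an alternative chosen after seeing the data, there were 74 calls (65 higher, 9 lower), 58 remained, 2 overshot and 12 passed genes. Requiring a fold of 2 left 292 calls (116 higher, 176 lower), 118 remained, 2 overshot and 57 passed genes, 1351 deletion and 862 blockade calls. The replicate block gave 732 calls (397 higher, 335 lower), although the numbers do not pair the samples. More genes were thus lower than higher with no filter, with DESeq2 and at a fold of 2, the reverse of the balance above. The same reversal came with the stricter filter (365 higher, 441 lower) and without robust estimation (401 and 409). It also came without floxed replicate 2 (678 and 825) and without floxed replicate 3 (183 and 363). With RLE scaling 355 were higher and 355 lower. No called named gene changed sign, but some genes that were not called did, with log2 fold changes of -0.90 to 0.57 for Tcf7, -0.10 to 0.38 for Inpp5d, -0.05 to 0.28 for Prf1, -0.08 to 0.21 for Ifng, -0.11 to 0.10 for Pdcd1 and -0.11 to 0.18 for Havcr2. Treated deficient replicate 2, which had the lowest total count, is the shallowest library and limits genes of low level.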
